A study of Mus musculus with 4 samples.

Results

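The genes described here are 10 epithelial genes, measured in cells that were sorted from a mouse pancreatic tumour for a fibroblast surface protease. They are the simple-epithelium keratins Krt7, Krt8, Krt18 and Krt19, the adhesion molecules Epcam and Cdh1, the claudins Cldn4 and Cldn7, the membrane mucin Muc1 and the trefoil peptide Tff2. They were chosen by symbol (krt7, krt8, krt18, krt19, epcam, cdh1, muc1, cldn4, cldn7 and tff2 in the lower-case spelling of the table), and all 10 were found among the 22609 genes of the deposited count table. All 10 match a current mouse symbol. The libraries hold RNA of cells carrying FAP (fibroblast activation protein), sorted from a spontaneous model of pancreatic ductal adenocarcinoma in mice of C57BL/6 background. The FAP+ cells were split by CD34 into 2 CD34+ and 2 CD34- libraries, CD34 being a surface sialomucin of endothelial, blood progenitor and some stromal cells. All 4 therefore share the FAP gate, the tumour model and the strain. The alleles and promoters that drive the tumours, the ages of the mice and the number of animals behind a library are stated by no source used here. The titles call the 2 libraries of a fraction biological replicates, and p-values measure the spread between these libraries, which may be partly technical.

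Keratins are the intermediate filament proteins of epithelial cells and assemble as pairs of a type II with a type I chain. Krt8 with Krt18 is the basic pair of simple epithelia, Krt7 and Krt19 mark ducts, and Krt19 is a standard marker of pancreatic ductal cells and of the carcinomas that resemble them. Cdh1 (E-cadherin) holds neighbouring epithelial cells together at adherens junctions, and claudins seal the tight junctions above them. Epcam is a surface glycoprotein used to sort epithelial cells, Muc1 is a mucin anchored in the apical membrane, and Tff2 is secreted with gastric mucus. Mesothelial cells also make the simple keratins, while fibroblasts are built on vimentin, a type III filament.

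Promoter windows are shown because several of these genes carry the letters CACCTG shortly before their start. CACCTG is the E-box core that the repressors Snai1, Snai2, Zeb1 and Zeb2 are known to bind in epithelial promoters. RefSeq (GRCm38.p6) gave 8 windows for 7 of the 10 genes, each covering the 250 bases before a transcript start. Krt19, Cdh1 and Tff2 had no window in the set used, so nothing is said of their promoters. The letters CACCTG, searched on both strands and thus also as CAGGTG, were found in 7 of the 8 windows and in at least 1 window of all 7 genes. They were found in 17.2% of all 32817 RefSeq windows of that length. As the windows are shown because of these letters, the count in them is no test of enrichment. The base composition of these windows was not compared, and a match of letters is not evidence of binding. The values of the Krt8 and Krt18 pair ran close together in the libraries. Epcam and Cldn4 were among the 7 of the 10 genes that were highest in CD34+ replicate 1. Below, capitals mark CACCTG or CAGGTG in 4 windows, those of Krt8, Krt18, Epcam and Cldn4. Each is written 5′ to 3′ on the strand of its gene. The window of Krt8 is chr15:102004343-102004592 on the minus strand and that of Krt18 is chr15:102027966-102028215 on the plus strand. The window of Epcam is chr17:87635729-87635978 on the plus strand and that of Cldn4 is chr5:134946935-134947184 on the minus strand.
Krt8: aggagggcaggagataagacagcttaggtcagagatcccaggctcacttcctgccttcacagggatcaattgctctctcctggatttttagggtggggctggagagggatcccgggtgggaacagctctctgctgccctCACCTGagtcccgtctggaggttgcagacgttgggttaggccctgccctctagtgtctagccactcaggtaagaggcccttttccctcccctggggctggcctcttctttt
Krt18: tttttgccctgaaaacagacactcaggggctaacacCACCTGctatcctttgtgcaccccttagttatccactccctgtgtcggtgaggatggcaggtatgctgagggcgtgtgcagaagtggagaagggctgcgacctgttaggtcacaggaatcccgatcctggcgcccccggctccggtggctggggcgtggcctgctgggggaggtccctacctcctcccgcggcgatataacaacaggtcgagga
Epcam: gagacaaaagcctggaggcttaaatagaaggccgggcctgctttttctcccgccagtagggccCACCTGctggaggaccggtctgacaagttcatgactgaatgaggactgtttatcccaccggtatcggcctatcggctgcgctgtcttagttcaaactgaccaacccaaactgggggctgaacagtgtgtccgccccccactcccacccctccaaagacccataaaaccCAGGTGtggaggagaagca
Cldn4: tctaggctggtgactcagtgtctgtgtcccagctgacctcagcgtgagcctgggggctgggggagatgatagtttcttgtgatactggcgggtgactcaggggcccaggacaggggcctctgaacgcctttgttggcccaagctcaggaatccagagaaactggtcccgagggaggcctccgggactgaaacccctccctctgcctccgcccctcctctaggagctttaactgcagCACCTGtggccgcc

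The E-box starts 111 bases before the start of Krt8, 214 before that of Krt18, 187 and 19 before that of Epcam, and 14 before that of Cldn4. Krt7, Muc1 and Cldn7 also had it (44 bases before the start for Krt7, 234 and 70 for Muc1, 97 and 57 for 1 of the 2 windows of Cldn7).

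Libraries held from 10322354 to 14633561 counted reads. Values are read counts scaled by the library total (CPM) unless another unit is named, and they are given in the order CD34+ replicate 1, CD34+ replicate 2, CD34- replicate 1, CD34- replicate 2. Cd34 was 143, 293, 18.3 and 23.9 CPM and Fap was 79.0, 39.8, 142 and 136 CPM, so Cd34 lay on the side of its label in every library. CD34+ replicate 1 stood apart in several lists of markers. The T cell gene Cd3e was 19.0 CPM there, 0.293 CPM in CD34+ replicate 2 and 0 in both CD34- libraries, where a count of 0 allows up to 0.227 and 0.205 CPM (counting error only). RNA was amplified before sequencing, so reads are not independent molecules and intervals from counts cover counting error only.

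All 10 genes were read in all 4 libraries, with counts from 45 (Cldn7, CD34- replicate 1) to 3512 (Krt18, CD34- replicate 1), and all 10 passed the filter on low counts. Together they made up 946, 599, 827 and 443 CPM. The sum was higher in replicate 1 than in replicate 2 of each fraction, and the fractions overlapped, at 773 ± 245 CPM in CD34+ libraries, against 635 ± 272 CPM in CD34- libraries (SD, n = 2 each). The 10 fibroblast markers (Col1a1, Col1a2, Col3a1, Dcn, Lum, Pdgfra, Pdgfrb, Pdpn, Thy1 and Fap) summed to between 37472 and 41209 CPM. The epithelial sum was 2.36%, 1.50%, 2.01% and 1.18% of that. The keratins made up 70.6%, 81.1%, 85.9% and 78.0% of the epithelial sum. In sorted bulk samples, fewer cells of a type and less RNA per cell cannot be told apart.

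**Figure D1:**
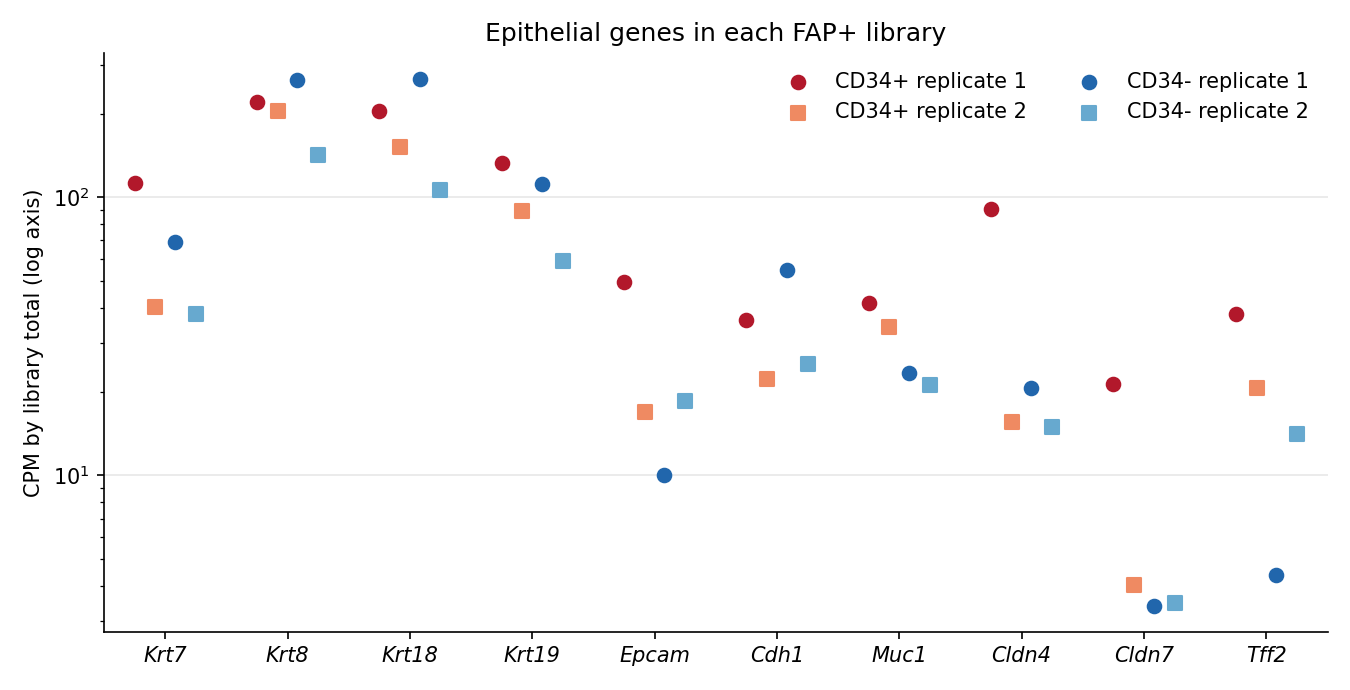
Level of each of the 10 genes (CPM by library total, log axis) in the 4 libraries, 1 point per library with no averaging. Krt8 and Krt18 lie highest, Cldn4 and Cldn7 stand out in CD34+ replicate 1 (90.5 and 21.3 CPM), and Tff2 is low in CD34- replicate 1 (4.39 CPM).

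To order the genes by level, the deposited RPKM were used, which divide reads by gene length. Their library totals differ from the column totals behind CPM, so an SD of RPKM over libraries holds that scaling too. Over the 4 libraries the mean was 95.1 ± 40.6 RPKM for Krt18, 84.4 ± 24.1 for Krt8, 51.3 ± 12.4 for Krt19, 28.7 ± 10.7 for Krt7 and 22.8 ± 12.9 for Tff2 (SD, n = 4). The level was 12.7 ± 10.3 RPKM for Cldn4, 9.57 ± 1.46 for Muc1, 7.81 ± 4.10 for Epcam, 5.83 ± 2.93 for Cdh1 and 3.94 ± 3.45 for Cldn7. The gap between neighbours in this order was larger than the SD of both genes for Krt8 over Krt19 and for Krt19 over Krt7, and lay within the SD of at least 1 of the genes for all other neighbours. Krt18, Krt8 and Krt19 held the 3 highest places in every library. Krt18 exceeded the RPKM of 95.4% to 98.4% of all genes in the table, Epcam of 64.7% to 88.1% and Cldn7 of 56.9% to 83.5%. Vim, the filament gene of mesenchymal cells, was 1192, 2058, 2159 and 2470 RPKM, of which Krt18 was 6.84%, 3.82%, 7.18% and 2.64%. By column totals Vim was 3901, 5192, 4844 and 5256 CPM, a narrower spread between libraries than in RPKM.

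The fractions overlapped for all 4 keratins. Krt8, the type II chain of the basic pair, was read at 219 and 205 CPM in CD34+ libraries and at 263 and 142 CPM in CD34- libraries. Both CD34+ values lay between the CD34- values. Krt18, its type I partner, reached 204 and 151 CPM in CD34+ libraries, against 266 and 106 CPM in CD34- libraries, and again the CD34- values enclosed the CD34+ values. The log2 fold change of CD34+ over CD34- was 0.10 (SE 0.33, adjusted p = 0.895) for Krt8 and -0.02 (SE 0.43, adjusted p = 0.987) for Krt18 in edgeR's quasi-likelihood test, where p was adjusted over all 13875 genes tested. The signs of both turned in other settings, for Krt18 from -0.50 on log2 FPKM to 0.66 without CD34- replicate 1 and for Krt8 from -0.46 to 0.49. RefSeq names a pseudogene Krt8-ps, and no source used here says how the authors' counting treated reads shared with it.

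Krt19, the ductal type I keratin, reached 133 and 89.5 CPM in CD34+ libraries, against 112 and 58.9 CPM in CD34- libraries. The highest and the next value came from replicate 1 of the 2 fractions, so the groups overlapped (log2 fold change 0.42, SE 0.36, edgeR adjusted p = 0.578). Krt7, the ductal type II keratin, reached 113 and 40.3 CPM in CD34+ libraries, against 69.4 and 38.0 CPM in CD34- libraries. Its replicate 1 libraries were 2.80 and 1.83 times its replicate 2 libraries, and the fractions overlapped (0.56, SE 0.52, edgeR adjusted p = 0.611). Without CD34+ replicate 1 the sign of Krt7 turned (-0.41).

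By length-scaled levels, the type I chains together exceeded the type II chains together in all 4 libraries. Krt8 was 0.836, 1.05, 0.769 and 1.04 times the RPKM of Krt18. Krt7 and Krt8 together were 0.796, 0.800, 0.699 and 0.867 times Krt18 and Krt19 together. The mean ratio was 0.798 ± 0.0030 in CD34+ and 0.783 ± 0.119 in CD34- libraries (SD, n = 2 each), a difference smaller than the spread in CD34- libraries. Among all 45 pairs of the 10 genes, Krt8 and Krt18 had the closest pattern over the 4 libraries, with a root mean square difference of 0.19 between their log2(CPM + 1) values after each was centred on its mean. Cldn4 with Cldn7 and Krt8 with Krt19 came next, at 0.22 each.

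The adhesion genes Cdh1 and Epcam ran differently from each other. Cdh1, the E-cadherin gene, reached 36.3 and 22.2 CPM in CD34+ libraries, against 54.8 and 25.1 CPM in CD34- libraries. It was highest in CD34- replicate 1, as were Krt8 and Krt18, and the fractions overlapped (log2 fold change -0.40, SE 0.42, edgeR adjusted p = 0.647). Without CD34- replicate 1 its sign turned (0.14). Epcam reached 49.7 and 16.9 CPM in CD34+ libraries, against 10.1 and 18.6 CPM in CD34- libraries. It was highest in CD34+ replicate 1 and lowest in CD34- replicate 1, the library where Cdh1 was highest. The log2 fold change was 1.22 (SE 0.59, edgeR adjusted p = 0.356), and 0.21 without CD34+ replicate 1. The RPKM ratio of Epcam to Cdh1 was 2.93, 1.63, 0.393 and 1.59, so Epcam exceeded Cdh1 in 3 libraries and lay below it in CD34- replicate 1.

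Both claudins stood out in 1 library. Cldn4, a claudin of many simple epithelia, was 90.5 CPM in CD34+ replicate 1 and 15.6, 20.7 and 15.0 CPM in the other libraries. Cldn7 was 21.3 CPM in CD34+ replicate 1 and 4.03, 3.40 and 3.49 CPM in the others. CD34+ replicate 1 was thus 5.80 and 5.29 times CD34+ replicate 2 for Cldn4 and Cldn7. The log2 fold changes of 1.61 (SE 0.75, edgeR adjusted p = 0.345) and 1.90 (SE 0.78, edgeR adjusted p = 0.303) became -0.19 and 0.21 without CD34+ replicate 1. For Cldn7 the fractions did not overlap, but the 95% Poisson intervals of the 3 low libraries did, at 3.04 to 5.24, 2.48 to 4.56 and 2.59 to 4.58 CPM (counting error only). On the deposited RPKM, which use other library totals than CPM, the fractions of Cldn7 overlapped, at 2.23 in CD34+ replicate 2 and 2.29 in CD34- replicate 2. The RPKM ratio of Cldn4 to Cldn7 moved little in comparison, at 3.07, 2.80, 4.39 and 3.11.

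Muc1 and Tff2 were the mucosal genes, and their fractions did not overlap. Muc1 reached 41.8 and 34.2 CPM in CD34+ libraries, against 23.3 and 21.1 CPM in CD34- libraries. Its replicates lay close together, and its SE was the smallest of the 10 genes (log2 fold change 0.80, SE 0.25, unadjusted p = 0.0184, adjusted p = 0.235, edgeR). Its direction was the same in all 14 alternative settings, with log2 fold changes from 0.19 to 0.93. Tff2 reached 38.1 and 20.6 CPM in CD34+ libraries, against 4.39 and 14.1 CPM in CD34- libraries (1.65, SE 0.63, unadjusted p = 0.0380, adjusted p = 0.285, edgeR). CD34- replicate 1 held 0.310 times the Tff2 of CD34- replicate 2, while it held 1.90 times its Krt19. The RPKM ratio of Tff2 to Krt19 was 0.690, 0.553, 0.0944 and 0.577, so CD34- replicate 1 stood apart from the other 3 libraries in that ratio. Without CD34- replicate 1 the log2 fold change of Tff2 was 0.97, and without CD34- replicate 2 it was 2.83.

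**Figure D2:**
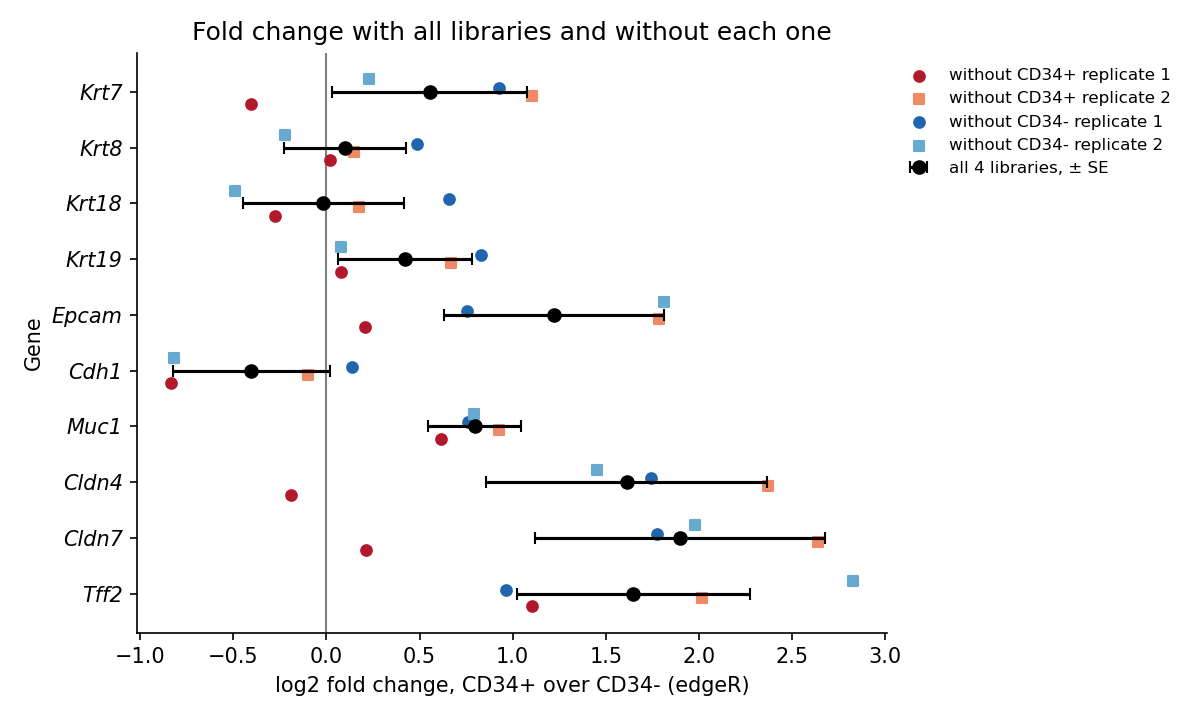
Log2 fold change of CD34+ over CD34- for each gene from edgeR with all 4 libraries (black, bars are 1 SE) and with 1 library left out (coloured points). The points for Cldn4 and Cldn7 without CD34+ replicate 1 lie at -0.19 and 0.21, while those of Muc1 stay between 0.62 and 0.93.

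Across the 10 genes, edgeR called 0 at an adjusted p of 0.05, as it did among all genes tested (0% called). DESeq2 and limma voom also called 0 of the 10, and of all genes they called 3.63% and 0%. Without adjustment 3 of the 10 (Muc1, Cldn7 and Tff2) had p under 0.05, all with higher values in CD34+ libraries, where 9.81% of all tested genes did so in that direction and 6.65% in the other. The same 3 genes were those whose fractions did not overlap, all with CD34+ higher, which held for 23.4% of all tested genes in that direction and for 26.6% in the other. For Cdh1 and Krt18 the fold change was negative, for the other 8 positive, beside 48.7% positive among all tested genes, and the median of the 10 was 0.68 beside -0.02 for all tested genes. The counts rest on few libraries. With a library left out, 1 fraction has a lone library, which the fit assumes to vary like the other fraction. The number of the 10 genes at an unadjusted p under 0.05 was then 0 without CD34+ replicate 1, where 10.3% of all genes tested in that fit had such a p in either direction. Without CD34- replicate 1 it was also 0, beside 8.41% of all genes. It was 5 without CD34+ replicate 2, beside 22.6%, and 2 without CD34- replicate 2, beside 9.06%.

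By library, 7 of the 10 genes were highest in CD34+ replicate 1, where 28.9% of all tested genes were highest. The other 3 (Krt8, Krt18 and Cdh1) were highest in CD34- replicate 1, where 33.4% of all tested genes were. The lowest library was CD34- replicate 2 for 6 of the 10 genes, beside 30.0% of all tested genes. Epcam, Cldn7 and Tff2 were lowest in CD34- replicate 1 (16.9% of all tested genes) and Cdh1 in CD34+ replicate 2 (17.5%). The 2 libraries with the highest sums thus held different proportions of the same genes: Cldn4 was 41.1% of the RPKM of Krt8 in CD34+ replicate 1 and 7.81% in CD34- replicate 1, and Epcam was 16.6% and 2.57% of Krt18.

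**Figure D3:**
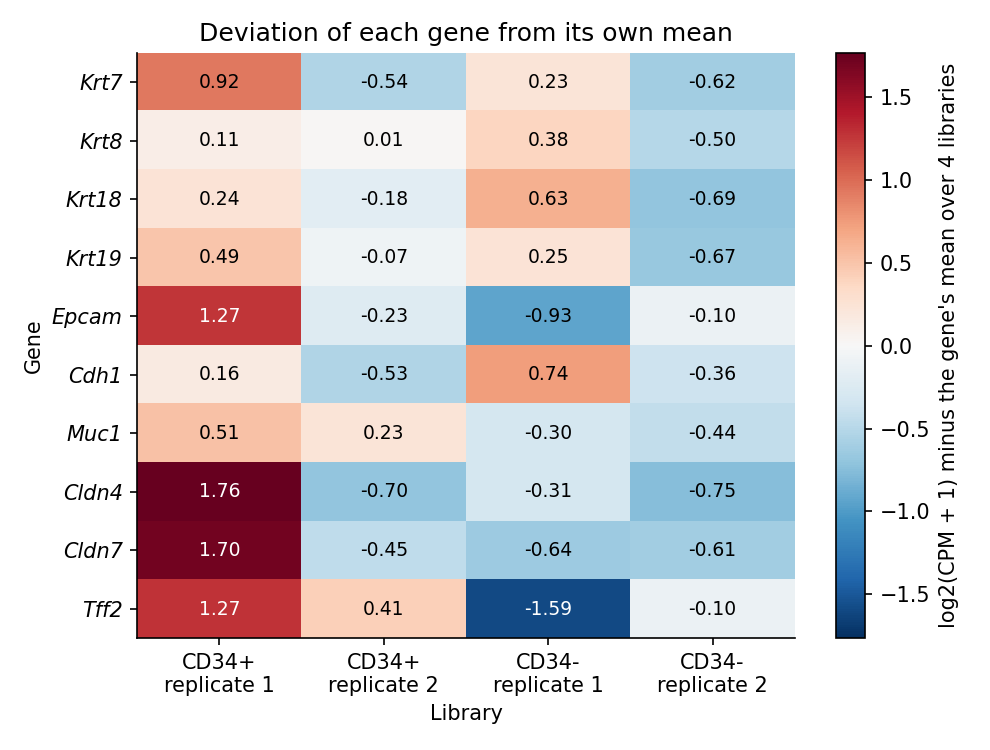
Deviation of each gene's log2(CPM + 1) from its own mean over the 4 libraries (rows are genes, columns libraries, red above and blue below the mean). CD34+ replicate 1 is above the mean for all 10 genes, and CD34- replicate 1 is above it for Krt7, Krt8, Krt18, Krt19 and Cdh1 and below it for the other 5.

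Other epithelial genes were read from lists of the same kinds, and edgeR called 0 genes of each list in either direction (0% of all tested genes). The other keratins were low. All 14 were in the table, 6 were tested, and their sum was 32.2, 26.1, 52.0 and 18.2 CPM. Krt20 and Krt23, keratins of simple epithelia, were highest in CD34- replicate 1, Krt20 at 20.7 CPM against 3.96 to 4.69 CPM and Krt23 at 21.5 CPM against 2.39 to 10.2 CPM. Krt14, a basal keratin, was 1.26, 7.91, 1.44 and 4.03 CPM, and Krt16 was 2.13, 1.47, 0.832 and 1.16 CPM.

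Of 19 other tight junction genes 16 were tested (median log2 fold change 0.63), with 11 positive and 5 negative. Cldn1 was 2.23, 3.81, 12.2 and 4.37 CPM and Ocln (occludin) 3.29, 2.12, 1.06 and 0.752 CPM. The scaffold gene Tjp1 was 22.9, 39.4, 50.9 and 58.7 CPM and F11r, the most abundant, 72.6, 163, 92.7 and 141 CPM. Both are also made outside epithelia, and F11r had no side by fraction. The 14 adherens junction and desmosome genes split evenly in sign (7 and 7, median 0.03). Among them the catenin genes Ctnnb1 (552, 469, 510 and 668 CPM) and Ctnna1 (204, 201, 323 and 359 CPM) were the most abundant, and the plakophilin gene Pkp3 (8.82, 4.47, 2.72 and 3.08 CPM) and Ppl (6.98, 4.62, 3.10 and 1.85 CPM) were higher in both CD34+ libraries. With Dsc2 this made 3 of the 14 whose fractions did not overlap with CD34+ higher, beside 23.4% of all tested genes. For 2 of the 14, Ctnna1 and Perp (8.33, 8.28, 10.3 and 9.70 CPM), both CD34- libraries were higher, beside 26.6% of all tested genes. Dsc2 and Perp were named after their values were seen.

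Most regulators of the epithelial state were low, with Klf5 and Elf3 above the rest. Of 12, 11 were tested (8 positive, median 0.76). Klf5 was 29.5, 22.9, 36.8 and 22.2 CPM. Elf3, named after its values were seen, was 17.7, 16.2, 24.1 and 11.5 CPM. The splicing regulator gene Esrp1 was 5.52, 1.17, 0.378 and 0.683 CPM and Tcfap2a 2.52, 3.08, 3.18 and 12.5 CPM. The grainyhead factor gene Grhl2 was 2.62, 1.17, 0.0757 (1 read) and 0.888 CPM. The repressors of Cdh1 and mesenchymal genes were read in the same libraries, 9 of 10 tested, with 1 positive and 8 negative (median -0.42). Snai2 was 2.81, 7.03, 17.3 and 13.0 CPM, Twist1 17.3, 24.0, 45.6 and 39.2 CPM and N-cadherin (Cdh2) 9.40, 13.0, 48.7 and 24.5 CPM, each with fractions that did not overlap and CD34- higher (unadjusted p = 0.0165, 0.0080 and 0.0040, edgeR; adjusted p from 0.177 to 0.230). With Snai1 (39.2, 30.9, 55.2 and 40.7 CPM) and Cdh11 they made 5 of the 9 tested with CD34- higher in both libraries, beside 26.6% of all tested genes. Zeb1, another repressor of Cdh1, went the other way, at 90.9, 97.3, 69.8 and 63.8 CPM (log2 fold change 0.51, unadjusted p = 0.0607, edgeR). Zeb2 overlapped between fractions, at 107, 191, 190 and 161 CPM. Snai1, Cdh11, Zeb1 and Zeb2 were named after their values were seen. Cdh1 and Cdh2 were both highest in CD34- replicate 1.

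Among 12 tested of 18 mucin, trefoil and mucosal secretory genes, 10 were positive and 2 negative (median 1.38). Muc6, a gastric gland mucin, was 9.20, 4.32, 1.29 and 1.50 CPM (unadjusted p = 0.0067, adjusted p = 0.200, edgeR), and Muc13 was 8.62, 4.76, 1.89 and 1.64 CPM. Muc2 was 14.2 CPM in CD34+ replicate 1 and 1.23 to 1.98 CPM elsewhere. The protease gene Ctse, the most abundant of the list, was 37.5, 34.3, 71.3 and 27.5 CPM. Of the 12 tested, 8 were lowest in CD34- replicate 1, beside 16.9% of all tested genes. In contrast, 2 were highest there, Ctse and Anxa10, beside 33.4% of all tested genes. Anxa10, named after its values were seen, was 4.65, 13.7, 18.6 and 10.4 CPM. The gastrokines of the stomach lining, chosen after their values were seen, lay with Tff2 in being low in CD34- replicate 1. Gkn1 was 14.4, 29.9, 0.151 and 20.8 CPM, Gkn2 6.39, 15.9, 0.151 and 5.67 CPM, and Gkn3 15.9, 25.9, 1.59 and 18.9 CPM. In CD34- replicate 1 the values of Gkn1 and Gkn2 rest on 2 reads each. Pigr, the immunoglobulin transporter gene of mucosal epithelia, was 7.46, 4.76, 0.227 and 4.78 CPM.

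The list of other carcinoma surface and epithelial genes ran with Epcam and the claudins. All 16 were tested, 15 were positive (median 1.19), and 14 were highest in CD34+ replicate 1, beside 28.9% of all tested genes. The integrin gene Itgb4 was 36.3, 10.8, 8.93 and 4.58 CPM, Sfn 40.7, 14.7, 6.13 and 9.70 CPM and the adhesion molecule gene Ceacam1 9.59, 2.93, 1.97 and 1.03 CPM. Cd24a ran with Krt8, Krt18 and Cdh1, at 28.9, 27.4, 68.3 and 26.4 CPM. Fold changes of these genes share CD34+ replicate 1 with those of Cldn4 and Cldn7 and are no separate evidence.

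**Figure D4:**
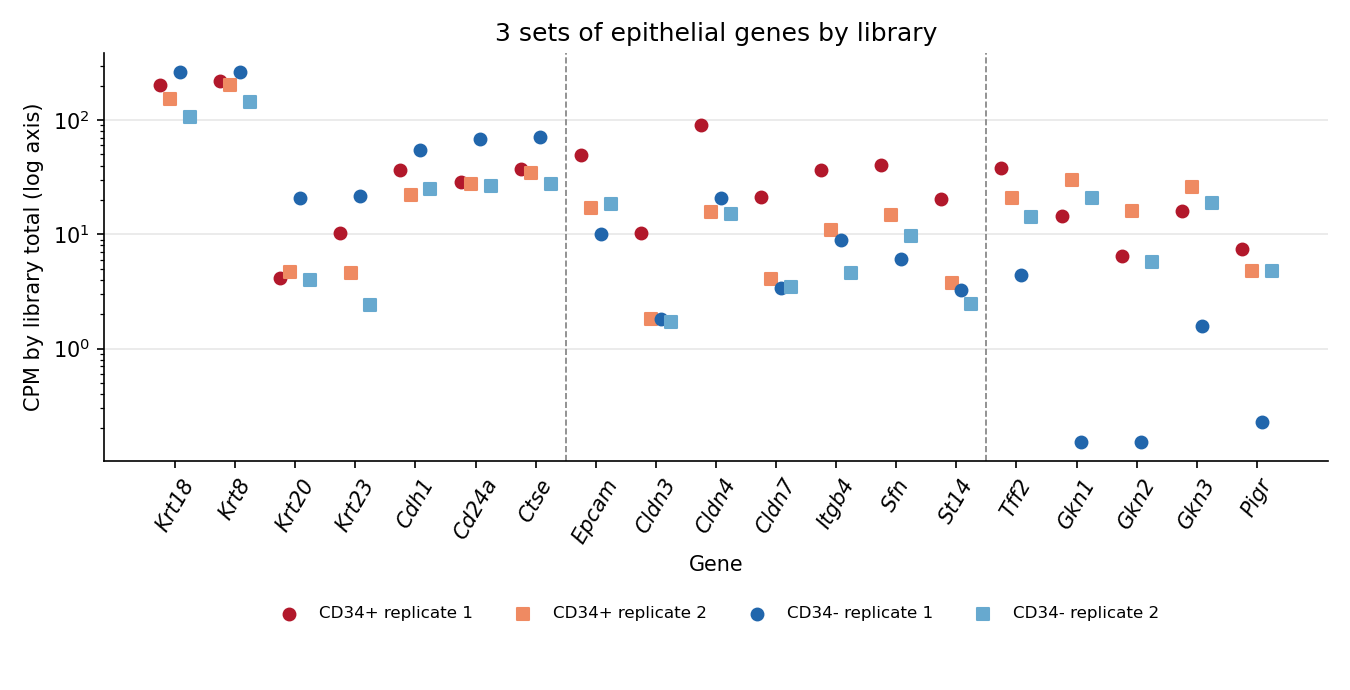
CPM by library total (log axis) of 19 epithelial genes in 3 sets that were put together after their values were seen, 1 point per library. The left set is highest in CD34- replicate 1, the middle set in CD34+ replicate 1, and the right set is lowest in CD34- replicate 1. These traits overlap between sets. Epcam, Cldn7 and Sfn of the middle set are also lowest in CD34- replicate 1, and Tff2 and Pigr of the right set are also highest in CD34+ replicate 1.

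Markers of other cells that the FAP gate could hold were read beside the epithelial genes, and edgeR called 0 genes of each list. Duct markers were all in the table (12 of 12) and summed to 567 and 589 CPM in CD34+ libraries, against 510 and 430 CPM in CD34- libraries. Most of that sum was Bicc1 (378, 380, 285 and 268 CPM), which was the most abundant, while Pdx1, the pancreatic regulator, was 0.581, 0.366, 0.378 and 0.273 CPM. Prom1 was 19.8, 6.15, 3.78 and 5.67 CPM. Pkhd1, of smallest p in this list, was 4.07, 2.20, 0.530 and 0.342 CPM (log2 fold change 2.85, unadjusted p = 0.0037, adjusted p = 0.177, edgeR). Sox9, a duct regulator named after its values were seen, was 48.9, 46.3, 53.9 and 84.7 CPM, higher in both CD34- libraries. Of the 10 duct markers tested, 3 did not overlap with CD34+ higher, beside 23.4% of all tested genes. With CD34- higher it was 1, beside 26.6%. Acinar markers (16 of 16 in the table) summed to 16.1 to 37.9 CPM and islet markers (10 of 10) to 1.13 to 12.2 CPM. Ptf1a, the acinar regulator, was at 0 in 3 libraries.

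Mesothelial markers matter here because mesothelium makes the same keratins. Of 10, 9 were in the table and summed to 271 and 154 CPM in CD34+ libraries, against 140 and 101 CPM in CD34- libraries. Wt1 was 206, 120, 57.7 and 79.3 CPM and made up most of the sum in all but CD34- replicate 1. Msln, a marker of mesothelium and also of pancreatic carcinoma, was 49.8, 13.8, 75.0 and 11.6 CPM, high in both replicate 1 libraries as were Krt7 and Krt19. Lrrn4 (2.52, 1.90, 0.151 and 0.273 CPM) and Upk3b (3.20, 1.03, 0.303 and 0.273 CPM) were low but higher in both CD34+ libraries. So were Nkain4 (4.75, 8.57, 1.59 and 1.71 CPM) and Gpm6a (2.13, 1.32, 0.378 and 0.273 CPM). Calb2 had too few reads to be tested. It was at 0 in both CD34+ libraries, where a count of 0 allows up to 0.291 and 0.220 CPM (counting error only). In CD34- libraries it was at 0.681 and 0.273 CPM (9 and 4 reads). Of 7 mesothelial markers tested, 5 did not overlap with CD34+ higher, beside 23.4% of all tested genes. With CD34- higher it was 0, beside 26.6%. Their median log2 fold change was 2.02, with 5 positive and 2 negative. Endothelial markers (9 of 9) summed to 103 and 81.8 CPM in CD34+ libraries, against 44.5 and 46.5 CPM in CD34- libraries. All 9 were tested, and 7 did not overlap with CD34+ higher, beside 23.4% of all tested genes. The other 2, Emcn and Esam, named after their values were seen, did so with CD34- higher, beside 26.6%. Leukocyte markers (8 of 8) summed to 130 and 97.8 against 63.0 and 52.8 CPM. Most of that was Lyz2 (70.9, 76.1, 37.9 and 41.8 CPM). Pericyte markers (8 of 8) summed to 494 and 429 against 551 and 693 CPM. All 8 were tested, and 4 did not overlap with CD34- higher, beside 26.6% of all tested genes. With CD34+ higher it was 0, beside 23.4%. Rgs5 was 2.13, 7.33, 45.5 and 89.7 CPM and Mcam 27.9, 16.5, 103 and 103 CPM. Cspg4, the most abundant, overlapped at 243, 51.9, 139 and 196 CPM. Schwann cell markers (4 of 4) summed to 8.35 to 18.7 CPM. The part of these cell types in the values of the 10 genes was not tested.

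**Figure D5:**
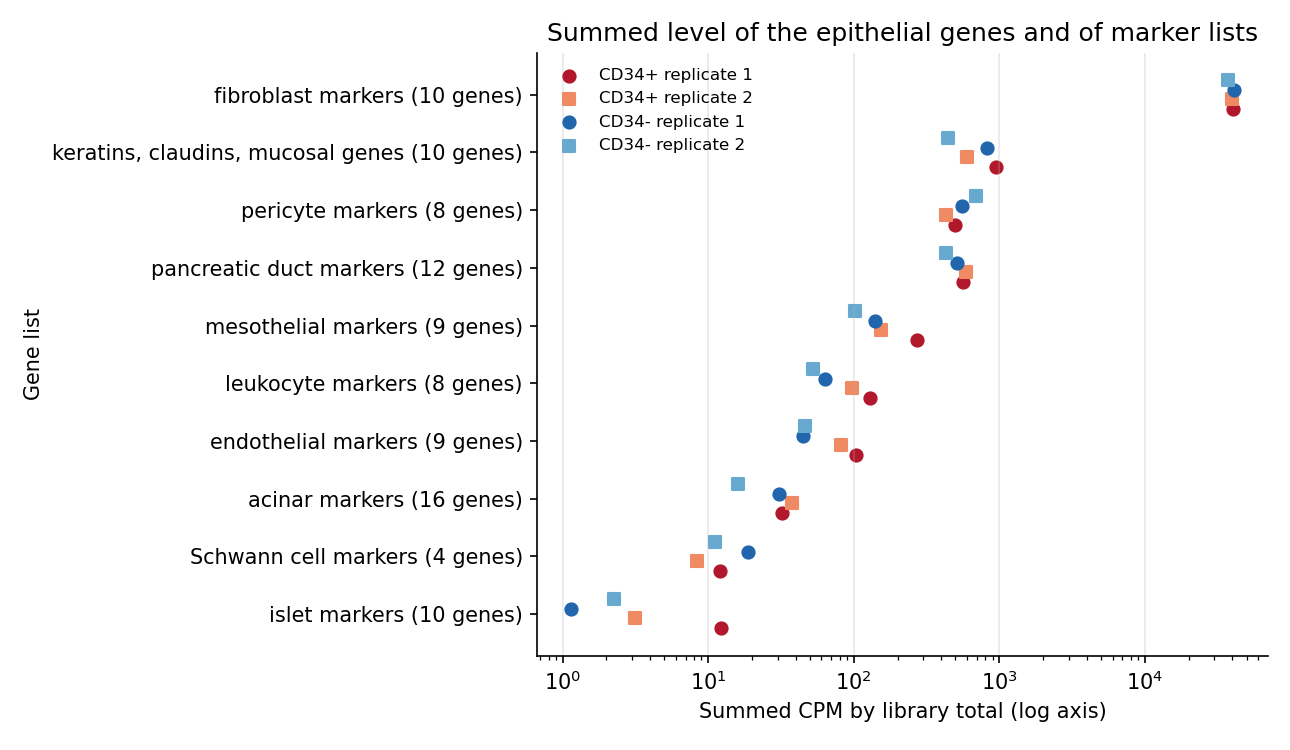
Summed CPM (log axis) of the 10 epithelial genes and of the marker lists, 1 point per library, with the number of genes found in the table in brackets. The epithelial sum runs from 443 to 946 CPM, below the fibroblast markers at 37472 to 41209 CPM and above the acinar markers at 16.1 to 37.9 CPM.

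Over the 4 libraries, the genes nearest in pattern to the sum of the 10 were searched among 10512 other genes with a mean of at least 5 CPM, by the root mean square difference of centred log2(CPM + 1). They were A130040m12rik (0.02), 2310009b15rik (0.02), Dclk1 (0.04), Cdk5rap1 (0.04) and Clu (0.05). Dclk1 was 194, 129, 175 and 88.3 CPM and Clu 1316, 882, 1118 and 609 CPM. With 4 libraries many genes share a pattern, and the sum follows mostly the keratins.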

How the data were processed

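RNA of 4 libraries was extracted with Purelink and amplified with MessageAmp, per the labels' protocols. Bowtie2, TopHat2, HTSeq, edgeR and the build mm9 come from the submitters' processing notes; versions, annotation and strand setting stay unstated in these notes. The deposited counts are whole reads per gene, not normalized. The deposited RPKM scale these reads to gene length and a library total. These totals differ from the column totals of the counts, and what they held is not stated. The deposited FPKM, called bias-adjusted by the authors, cover 22558 genes. A further 14 columns of each table belong to none of the 4 samples and were not used.

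CPM were computed from column totals. Counts were tested with edgeR 4.0.16 (R 4.3.3; quasi-likelihood F test, TMM scaling, filterByExpr, group as the only term, all 4 libraries), with Benjamini-Hochberg adjustment over 13875 genes at 0.05, two-sided. The SE is the size of the log2 fold change over the square root of its F statistic. An exact permutation test of 2 against 2 cannot go below p = 0.333, so none was run. Alternatives were DESeq2 1.42.0, limma 3.58.1 (voom, and log2 of RPKM or FPKM with a pseudocount), other scalings and filters, a block on the replicate number, and fits that left out 1 library.

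Named genes were the 10 chosen, Fap and Cd34. From each list of epithelial, junction or mesenchymal genes, the most abundant gene and up to 3 of smallest p from 1 CPM were named. From the cell type lists, the genes picked in this way were not all named. Other names are said to be chosen after their values were seen, or are defining markers. The 10 genes and the lists were chosen with earlier results of these data known. Gene names are in lower case in the tables, and Tcfap2a was found under its older symbol. Muc3 and Muc16 were not analysed here. A gene of the list of carcinoma surface genes is not reported here.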

Additional observations from a re-analysis of the deposited data

How the results depend on the processing

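For each of the 10 genes, 14 alternatives were run, and in 124 of 140 cases the direction was kept. The adjusted p lay between 0.104 and 0.999, so 0 of the 10 were called in any of them. For Epcam, Muc1, Cldn7 and Tff2 the direction was the same in all 14. It turned on log2 RPKM + 1 for Krt7 (-0.0010) and Krt8 (-0.26), on log2 RPKM + 0.1 for Krt7 (-0.0027) and Krt8 (-0.27), and on log2 FPKM + 1 for Krt7 (-0.21), Krt8 (-0.46) and Krt19 (-0.18). These 3 scales shifted the median log2 fold change of all genes to -0.31, -0.42 and -0.31. Krt18 turned with median-of-ratios scaling (0.0132) and limma voom (0.0908). Leaving out a library turned Krt7 (range -0.41 without CD34+ replicate 1 to 1.10), Cldn4 (-0.19 without CD34+ replicate 1 to 2.37), Krt18 (-0.49 to 0.17 without CD34+ replicate 2 and 0.66 without CD34- replicate 1), Cdh1 (-0.83 to 0.14 without CD34- replicate 1) and Krt8 (-0.22 without CD34- replicate 2 to 0.49). The cause was not tested.

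Among all genes, where the main test called 0 in each direction, 2 were called higher with library size only and 2 with a filter of 1 CPM in 2 libraries. DESeq2 called 334 higher and 193 lower. With no filter on low counts edgeR called 194 and 137, and limma on log2 RPKM + 1 called 5 and 7 and on log2 RPKM + 0.1 called 32 and 66. With a block on the replicate number, edgeR called 39 higher and 23 lower, 0 of the 10 genes among them, and Krt18 turned to 0.0835. Deviations of same-numbered libraries correlated at 0.24 across genes, which are not independent, and no label says that the number marks shared animals.

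Leaving out each library, a choice made after seeing the data, gave 3 to 8 of the 10 genes not overlapping with CD34+ higher (29.9% to 40.5% of all tested genes), 0 to 3 with CD34- higher (33.7% to 44.3% of all; Cdh1 without CD34+ replicate 1; Krt8, Krt18 and Cdh1 without CD34- replicate 2), and 0 to 5 at an unadjusted p under 0.05 (8.41% to 22.6% of all genes, with the lone library assumed to vary like the other fraction). By FPKM in place of RPKM, 5 of the 10 genes kept their rank in each of the CD34- libraries. Counts of the 10 genes were at least 45 reads per library; differences between the low Cldn7 libraries lay within counting error.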
